A study of Rattus with 9 samples.

Results

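The antioxidant program controlled by NRF2 was followed by 10 genes in single cells of rat bile duct: Nfe2l2, which encodes NRF2, and its target genes Nqo1, Gclc, Gclm, Txnrd1, Srxn1, Gpx2, Slc7a11, Gsr and Hmox1. The members were chosen by gene symbol and not by a threshold on their values. Of the 10 named genes, 9 were among the 23999 features (23836 distinct symbols) of the count matrices, each as 1 feature. Srxn1, which encodes sulfiredoxin, was not analysed here.

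The bile ducts of Sprague-Dawley rats, young animals of both sexes in the study's methods, were dissociated and profiled by 10x Genomics 3' scRNA-seq. The sham group had 3 samples of 1 library each. The ctrl group received a liver transplantation (LT) with ischemic injury and had 1 sample each on days 1, 3 and 7. The treat group received the same LT together with ligation of the splenic and gastric-duodenal arteries, which raises arterial flow to the graft, and also had 1 sample each on days 1, 3 and 7. All 6 ctrl and treat samples thus share transplantation and ischemia, and the sham samples share neither. Each ctrl and treat sample had 3 libraries except treat day 3, of which 2 were used here. Libraries of 1 sample were summed, since nothing in the labels ties them to different animals, and p-values measure the spread between these samples only. The labels give no strain, sex or age for single samples.

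NRF2 is a transcription factor that is held back by KEAP1, which delivers it to a ubiquitin ligase for degradation. When oxidants or electrophiles modify KEAP1, NRF2 accumulates, enters the nucleus and binds antioxidant response elements together with small MAF proteins. Its targets reduce quinones, make and recycle glutathione, recycle thioredoxin, remove peroxides and break down heme. Because much of this control acts on the NRF2 protein, the Nfe2l2 mRNA does not measure NRF2 activity. Bile duct epithelium is exposed to bile acids and xenobiotics and is among the tissues in which this program is active.

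The 9 samples held 21270647 (sham 1) to 290590249 (treat day 1) UMIs, and 2323 to 31762 cells per sample were kept, 139743 in all. Cells were grouped into 43 clusters without use of the 9 genes or of the related genes listed further on, and 35 clusters were named from fixed markers as 18 cell types. Biliary epithelial cell (BEC)-like cells, the class in which 5 of the 8 measured targets had their highest median among the tested types, numbered 445, 1598 and 1769 in sham 1 to 3. They numbered 3844, 658 and 2855 in ctrl and 2494, 2585 and 4376 in treat on days 1, 3 and 7. All 12 BEC markers, among them Krt19, Krt7 and Epcam, were detected in the BEC-like cells of every sample, with summed levels of 11515 to 18596 UMIs per 1000000 UMIs of the class (CPM). CPM is the unit of every level below and is scaled to library size alone, while the fold changes also use TMM scaling. Libraries shared at most 1.19% of the cell barcodes of the smaller one. Of ctrl day 3, libraries 2 and 3 lost most of their barcodes to the limit on hemoglobin, 2472 of 2914 and 3961 of 4307. The 6 libraries numbered 1, with sham 1 counted among them, stood apart in Gsr of BEC-like cells. Gsr there was 76.8 to 119.7 (median 96.2) in them and 35.4 to 66.4 (median 51.0) in 13 other libraries, without overlap. In every other pair of member and tested cell type the ranges overlapped. Some medians still lay apart, such as those of Hmox1 in EC-like cells (45.8 and 202.9).

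The levels by cell type are given as a description, since cell types were defined from the same cells. Gpx2, which encodes the gastrointestinal glutathione peroxidase, was highest in BEC-like cells at a median over samples of 4559 (3495 to 8755). It was lower in tuft-like cells, the chemosensory cells of the epithelium, at 1302 (674 to 3224), and lower again in vascular smooth muscle cell (VSMC)-like cells at 40.1. Neither step of this order had overlapping ranges. In the 6 tested cell types outside the epithelium, the RNA of empty barcodes could account for 65.2% to 100% of the Gpx2 counts, so that Gpx2 there is not read as expression.

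Nqo1, the quinone reductase, had a median of 332 in BEC-like cells and 109.5 in tuft-like cells, with BEC-like cells higher in 9 of 9 samples although the ranges overlapped. Txnrd1, the cytosolic thioredoxin reductase, had medians of 269 and 140.1 in the same cells, and their ranges did not overlap. Gsr, which returns oxidized glutathione to its reduced form, was also highest in BEC-like cells, at 65.4 against 32.9 in monocyte-like cells, and BEC-like cells were higher in 9 of 9 samples. BEC-like cells therefore held the highest median of these 4 genes among the 8 tested cell types.

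The subunits of glutamate-cysteine ligase, the first enzyme of glutathione synthesis, differed in order. Gclc, the catalytic subunit, was highest in tuft-like cells at 109.9 (66.6 to 132), against 32.2 in BEC-like cells, and was higher in tuft-like cells in 9 of 9 samples. Gclm, the modifier subunit, was highest in BEC-like cells at 85.1, against 66.7 in tuft-like cells, again in 9 of 9 samples.

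Slc7a11, the cystine transporter that supplies cysteine for glutathione, was low in the tested types, with its highest median, 11.5, in tuft-like cells. It was far higher in neutrophil-like cells, at 67.5 (48.8 to 153) over the 7 samples with at least 20 such cells. Hmox1, the inducible heme oxygenase, was highest in macrophage-like cells at 418, followed by monocyte-like cells at 381 and endothelial cell (EC)-like cells at 201. NK&T-like cells had the lowest Hmox1, 6.25, and tuft-like cells the next lowest. The RNA of empty barcodes could account for 12.2% to 100% and 7.5% to 84.7% of their counts, so the Hmox1 levels of these classes are not ranked as expression. Nfe2l2 itself had its highest medians among the tested types in the myeloid classes. It was 229.8 in monocyte-like, 185 in macrophage-like, 160.5 in EC-like, 124.8 in BEC-like and 52.0 in tuft-like cells. Monocyte-like cells were above macrophage-like cells in only 4 of 9 samples, and EC-like above BEC-like cells in only 4 of 9. The tested classes that were neighbours in each order overlapped in their ranges, except for the pairs named as separate and, for Hmox1, NK&T- and tuft-like cells.

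**Figure D1:**
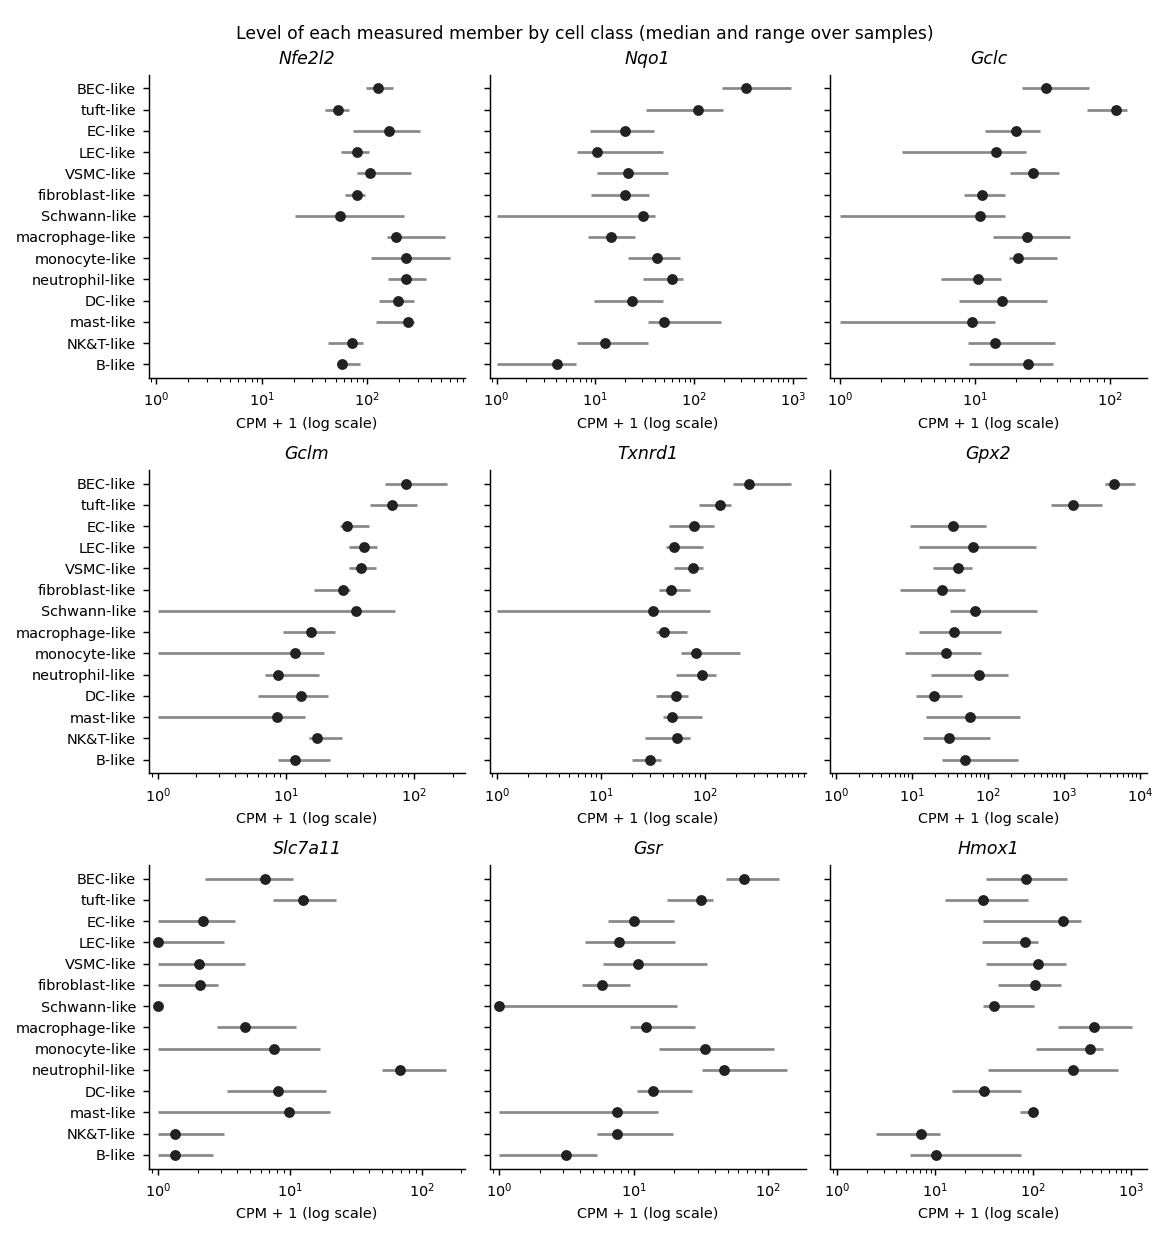
Each panel plots 1 gene, with cell class on the vertical axis and CPM + 1 on a logarithmic horizontal axis. Points are medians over samples and lines run from the lowest to the highest sample. Gpx2, Nqo1, Txnrd1 and Gsr were highest in BEC-like cells, Gclc in tuft-like cells, Slc7a11 in neutrophil-like cells and Hmox1 in macrophage-like cells.

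Within BEC-like cells, the question was whether the members differed between sham and LT by day. Gpx2 and Slc7a11 were higher and Nfe2l2 was lower in every LT sample than in every sham sample, and the other 6 members overlapped. Among genes with at least 20 UMIs in BEC-like cells, 2.62% were higher and 12.7% lower in all LT than in all sham samples. By edgeR's quasi-likelihood test with Benjamini-Hochberg adjustment over 13670 genes, 2 of 9 members (Gpx2 and Slc7a11) rose on day 1, 1 (Gpx2) rose on day 3 and none passed on day 7. The test called 17.7% of all genes on day 1 (10.9% higher), 3.12% on day 3 (2.18% higher) and 3.14% on day 7. The 3 contrasts share the sham samples. All 9 members passed the filter on low counts.

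Nfe2l2 in BEC-like cells was 173, 152 and 148 in sham 1 to 3. On days 1, 3 and 7 it was 96.4, 112.8 and 124.8 in ctrl and 115, 105.4 and 129.4 in treat. The 3 sham samples were thus the highest, with a mean of 158 ± 13.5 (SD, n = 3) against 114.0 ± 12.2 in LT (SD, n = 6). The SD of LT runs over days and arms and is not a spread of replicates. The log2 fold changes were -0.22 ± 0.11 (SE) on day 1, -0.32 ± 0.11 on day 3 and -0.21 ± 0.11 on day 7, and none passed (edgeR adjusted p = 0.215, 0.162 and 0.336). With scaling to library size alone, the day 1 value was -0.58 and passed (adjusted p = 0.0325). That scaling moved the median over all genes to -0.40, against -0.05 with TMM scaling.

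Gpx2, which reduces hydroperoxides with glutathione, was 3495, 3573 and 4119 in sham 1 to 3. On days 1, 3 and 7 it was 8755, 7221 and 4252 in ctrl and 7667, 5818 and 4559 in treat. Both day 1 samples were the highest in their group, and the level was lower at each later day in ctrl and in treat. The log2 fold change against sham was 1.49 ± 0.20 on day 1 (edgeR adjusted p = 0.00893), 1.00 ± 0.20 on day 3 (adjusted p = 0.0490) and 0.33 ± 0.21 on day 7 (adjusted p = 0.411). Day 7 was lower than day 1 by a log2 fold change of -1.16 ± 0.23 (adjusted p = 0.0223), and both day 7 samples were below both day 1 samples. This was the 1 member of 9 called between day 7 and day 1, where 14.9% of all genes were called and 8.38% were lower.

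The Gpx2 call on day 1 did not pass without sham 2 (adjusted p = 0.0561), without ctrl day 1 (0.104) or without treat day 1 (0.0752), with log2 fold changes of 1.48, 1.35 and 1.61. The day 3 call sat at the threshold and was lost without any 1 sample other than sham 1, with log2 fold changes of 0.98 to 1.11 (adjusted p = 0.0957 to 0.228). It was also lost with each library as a sample, without the libraries numbered 1 and with empty barcodes subtracted. The day 7 against day 1 call was lost without sham 2 (adjusted p = 0.0635), either day 1 sample (0.175 and 0.130) or either day 7 sample (0.255 and 0.124). Every one of these fits kept the direction. Gpx2 in empty barcodes was 1096 to 1234 in sham and 5491 and 1963 in ctrl and treat on day 1. Empty barcodes could account for 0.51% to 2.42% of the Gpx2 counts of BEC-like cells.

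Slc7a11 was 3.83, 1.27 and 2.21 in sham 1 to 3, from 12, 17 and 42 UMIs. On days 1, 3 and 7 it was 5.54, 9.62 and 7.35 in ctrl and 7.66, 5.50 and 5.15 in treat. The LT samples were all above the sham samples and showed no common order by day. The log2 fold change was 1.98 ± 0.40 on day 1 (edgeR adjusted p = 0.0192), 1.96 ± 0.41 on day 3 (0.0526) and 1.60 ± 0.40 on day 7 (0.0812). The day 1 call did not pass without sham 2 (adjusted p = 0.0717), sham 3 (0.0611), ctrl day 1 (0.0910) or treat day 1 (0.159). Without the libraries numbered 1 its log2 fold change was 2.69 (adjusted p = 0.0589), and with each library as a sample it was 2.03 (adjusted p = 0.118). The highest libraries held few BEC-like cells, 63.0 in library 3 of ctrl day 3 (43 cells) and 41.2 in library 2 of ctrl day 7 (141 cells). The ctrl values on days 3 and 7 rest on them in part, since library 1 of ctrl day 3 was at 5.76 and libraries 1 and 3 of ctrl day 7 at 4.53 and 4.47, still above the sham samples. Library 1 of ctrl day 1 (2.99), of treat day 1 (2.84) and of treat day 7 (2.93) lay below sham 1. So did library 2 of treat day 3 (3.73), so that the groups overlapped by single library.

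Neutrophil-like cells hold far more Slc7a11 than BEC-like cells, and neutrophil markers moved with this result. In BEC-like cells 8 of 8 tested neutrophil markers rose on day 1, when 10.9% of all genes were called higher. S100a8 rose by 5.39 and S100a9 by 5.30 on the log2 scale. The summed list of 9 was 598 to 854 in sham and 1529 to 2965 in LT. S100a8 and S100a9 together gave only 1.64 to 19.0 of it in sham and 57.1 to 385 in LT, so other listed genes gave most of the sum. Lcn2, also listed, was among the leading genes of an unnamed cluster whose markers were nearest to BEC. Measured by S100a8 and S100a9, neutrophil RNA made up at most 0.268% of BEC-like UMIs in any sample. Taken to carry Slc7a11 at the level of neutrophil-like cells of the same sample, that share amounts to at most 0.168 CPM. The measured level in LT was 5.15 to 9.62. Whether the 2 markers and Slc7a11 are carried in this ratio was not tested, and neither was the part of neutrophil RNA in the result. Slc7a11 in empty barcodes, those with at most 100 UMIs, was 1.10 to 1.47 in sham and 3.17 to 8.81 in LT. It thus moved in the same direction, and was above the BEC-like level in ctrl day 1 and ctrl day 7. By the markers of other cells, empty barcodes could account for 2.1% to 5.8% of the Slc7a11 counts of BEC-like cells, and with them subtracted the day 1 value was 1.94 (adjusted p = 0.0231). Lists of 3 other cells also moved without overlap in BEC-like sums, the monocyte list from 2082 to 2281 in sham to 2852 to 4799 in LT, the LEC list from 26.8 to 55.3 to 5.37 to 20.2 and the Schwann list from 35.7 to 41.3 to at most 30.5. The goblet list, 2762 to 2919 in sham and 2693 to 5944 in LT, overlapped, and the part of all these lists in the results was not tested.

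Nqo1, which reduces quinones without a radical intermediate, was 966 in sham 1 and 313 and 332 in sham 2 and 3. It was 227, 535 and 391 in ctrl and 414, 190.2 and 268 in treat on days 1, 3 and 7. Sham 1 was above all other samples and sham 2 and 3 lay within the range of the LT samples. Its log2 fold changes of -0.28 ± 0.56, -0.42 ± 0.56 and -0.59 ± 0.56 did not pass (edgeR adjusted p = 0.748, 0.712 and 0.605), and without sham 1 they turned to 0.34, 0.21 and 0.04.

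Gclc was 69.0, 39.2 and 35.7 in sham, 26.4, 29.9 and 32.2 in ctrl and 36.5, 21.4 and 31.1 in treat. Only treat day 1 reached the sham range. Gclm was 178, 87.5 and 82.7 in sham, 80.3, 108.3 and 85.1 in ctrl and 114.8, 58.1 and 76.7 in treat. Gclc had its largest difference on day 3, a log2 fold change of -0.67 ± 0.26 (edgeR adjusted p = 0.198), and Gclm on day 7, -0.39 ± 0.34 (adjusted p = 0.566), so neither subunit passed.

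Txnrd1 was 505, 192 and 210.2 in sham, 385, 674 and 266 in ctrl and 306, 187 and 269 in treat. Gsr was 119.7, 66.4 and 51.0 in sham, 65.4, 95.5 and 61.4 in ctrl and 76.5, 47.5 and 59.7 in treat. Sham 1 was again high in both, and the groups overlapped in the class as a whole. On day 1 the log2 fold change was 0.60 ± 0.45 for Txnrd1 (edgeR adjusted p = 0.378) and 0.26 ± 0.32 for Gsr (adjusted p = 0.598).

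Hmox1, which splits heme into biliverdin, iron and carbon monoxide, went the other way in sham 1. It was 31.9, 81.5 and 83.9 in sham, 220.0, 115.5 and 68.9 in ctrl and 45.6, 96.4 and 85.7 in treat. The day 1 samples were the highest and the lowest of the LT samples. Among the libraries of ctrl day 1, Hmox1 was 24.8 in library 1, 435 in library 2 and 244 in library 3. Its log2 fold change on day 1 was 1.14 ± 0.62 and did not pass (edgeR adjusted p = 0.225), and without ctrl day 1 it was -0.34.

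**Figure D2:**
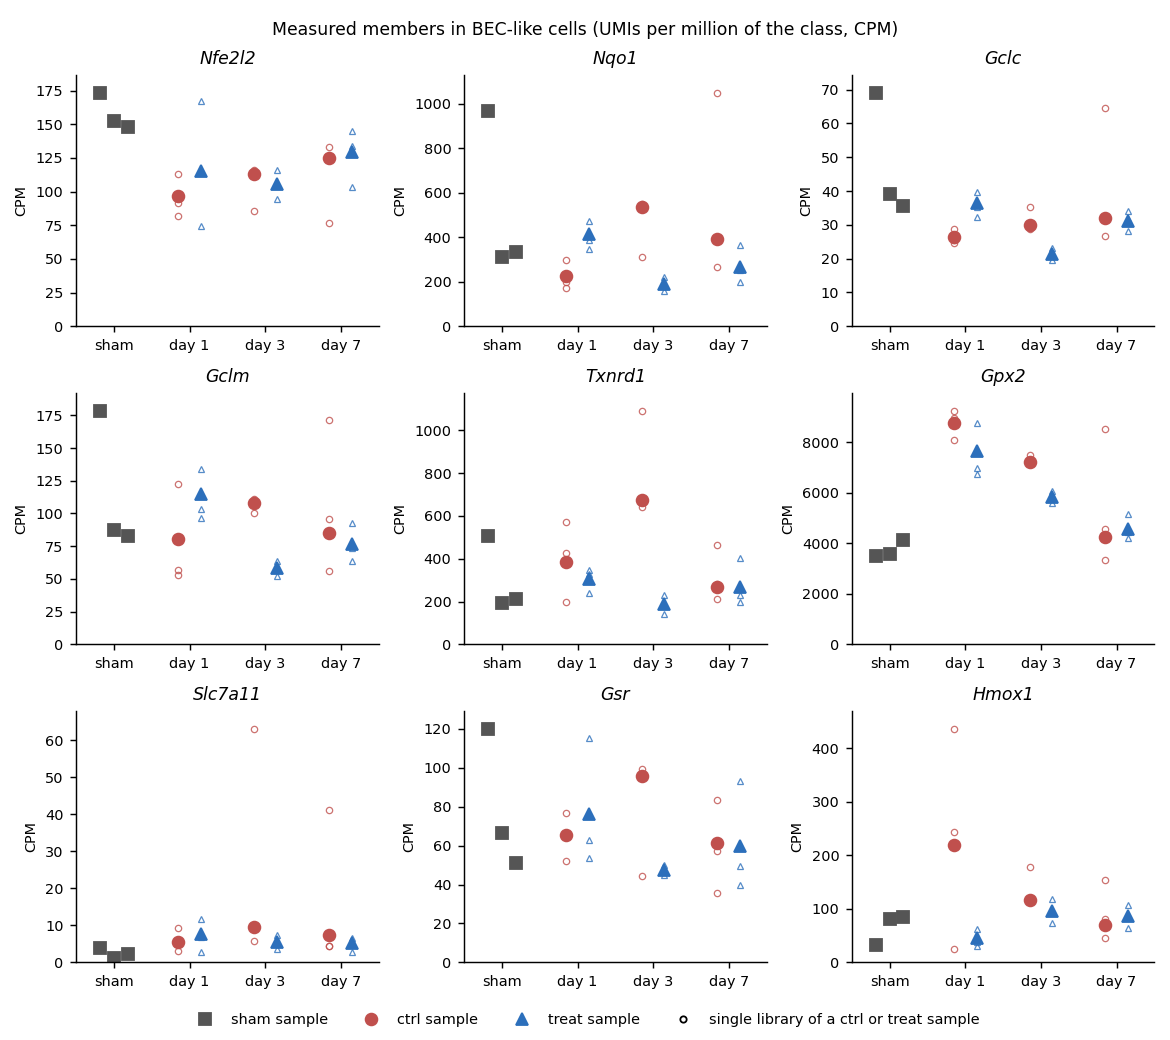
Each panel plots CPM of 1 member in BEC-like cells, on a linear axis from 0, for sham and for days 1, 3 and 7 after LT. Filled symbols are samples (sham, ctrl, treat) and open symbols single libraries. Gpx2 and Slc7a11 lay above and Nfe2l2 below the sham samples in all 6 LT samples, and sham 1 was the highest sample for Nqo1, Gclc, Gclm and Gsr.

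The median log2 fold change of the 9 members was 0.26 on day 1, 0.05 on day 3 and -0.21 on day 7, against -0.05, -0.04 and -0.02 over all genes tested. Between day 7 and day 1 it was -0.50, against 0.02 over all genes. At an unadjusted p under 0.05, 2, 4 and 1 members passed on days 1, 3 and 7, where 35.8%, 21.6% and 20.9% of all genes did.

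The treat and ctrl samples were compared across the 3 days to ask whether raised arterial flow changed the program. None of the 9 members was called in BEC-like cells, where the edgeR test called 0% of all genes. None passed at an unadjusted p under 0.05 either, where 11.2% of all genes did, and DESeq2 also called none, with 1.88% of all genes called. The log2 fold changes of treat against ctrl ranged from -0.75 ± 0.42 for Txnrd1 (adjusted p = 0.525) to 0.03 ± 0.10 for Nfe2l2 (adjusted p = 0.920). Gpx2 differed by -0.17 ± 0.19 and Slc7a11 by -0.31 ± 0.33. On day 3 most ctrl BEC-like cells came from library 1 and all treat cells from libraries 2 and 3. Arm and library number therefore cannot be told apart on that day. Gsr, Txnrd1 and Nqo1 were 95.5, 674 and 535 in ctrl and 47.5, 187 and 190.2 in treat there. Hmox1, at -0.74 ± 0.58, was lower in treat on days 1 and 3 and higher on day 7, and without either day 1 sample its value was near 0 (0.024 and 0.039). In simulated counts of this comparison with 200 of 13670 genes changed by a log2 value of 2, 88.5% were recovered. These genes were drawn over all depths, and recovery at the depth and spread of the members was not computed.

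**Figure D3:**
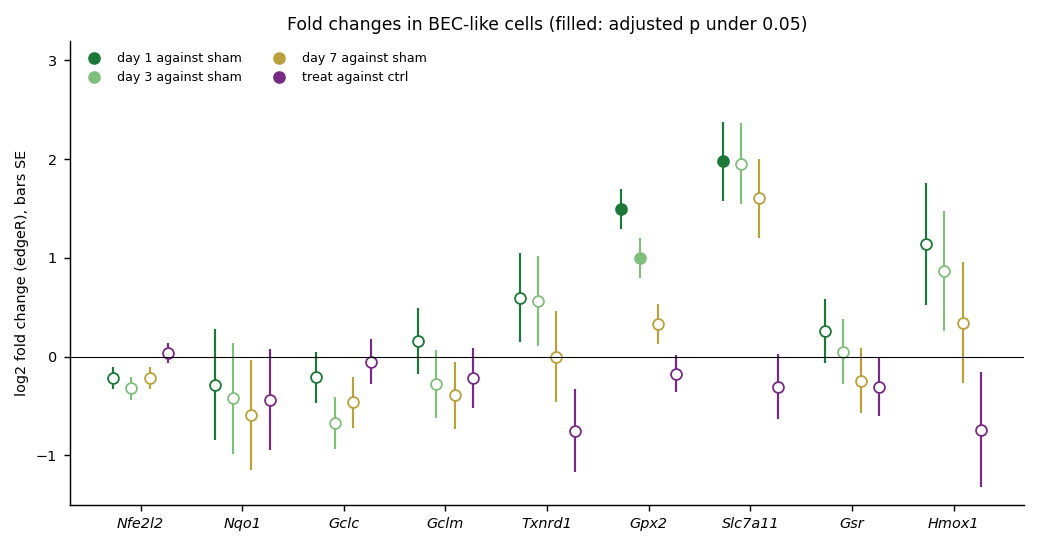
Log2 fold changes of the 9 members in BEC-like cells (vertical axis) by gene, in colours for days 1, 3 and 7 against sham and for treat against ctrl, with bars for the SE and filled points for adjusted p under 0.05. Gpx2 on days 1 and 3 and Slc7a11 on day 1 are filled, and no point of treat against ctrl is.

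BEC-like cells fell into 4 clusters whose shares shifted with LT. Cluster 18, led by Reg3g, Gpx2 and Reg3b and set apart from other cells most by Scgb1c1, Akr1c15 and Ttr, made up 27.6%, 68.0% and 76.2% of BEC-like cells in sham 1 to 3 and 1.19% to 13.4% in LT. Cluster 11, led by Reg3g, Agr2 and Gkn3, made up 4.94% to 5.48% in sham and 56.1% and 48.0% in ctrl and treat on day 1. Cluster 2, led by Mmp7 and Reg3g, held 85.2% and 88.2% on day 7, and cluster 15, led by Lypd8, Wfdc21 and Duox2, held 54.8% in sham 1. The members were not used to form the clusters, but Gpx2 was among the leading genes of clusters 2, 11 and 18.

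The day 1 difference in Gpx2 was also present inside clusters. In cluster 2, Gpx2 was 3312 to 4076 in sham and 5305 and 5354 in ctrl and treat on day 1. In cluster 18 it was 3617 to 4183 in sham and 8044 and 6729 on day 1, and in cluster 15 it was 1743 to 3790 and 4128 and 5207. In these 3 clusters both day 1 samples were above every sham sample. In cluster 11 the 22 cells of sham 1 had 11690, above the day 1 values of 10319 and 8783, while sham 2 and 3 had 3606 and 4119. Over all LT samples, Gpx2, Nfe2l2 and Slc7a11 each overlapped with sham in every cluster. On day 1, Slc7a11 was above every sham sample in clusters 2 and 18 only. It was 10.0 and 12.6 against 2.94 to 6.81, and 16.2 and 11.5 against 1.48 to 2.68. Nfe2l2 on day 1 was below every sham sample in cluster 18 only, at 107 and 125 against 143 to 191. Without cluster 18, the log2 fold change of Gpx2 on day 1 was 1.59 (edgeR adjusted p = 0.0129) and that of Slc7a11 was 2.29 (adjusted p = 0.0687). The Gpx2 call on day 3 was lost without this cluster.

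Cluster 15 had the highest level of the 4 clusters for Txnrd1 and Hmox1 in 9 of 9 samples, for Nqo1 and Gclc in 8 and for Gclm in 7. Gsr did not follow this order, with the highest level in cluster 15 in 3 samples and a median there of 56.8, against 64.7 to 67.8 in the other clusters. Its Nqo1 was 1887, 574 and 564 in sham 1 to 3, against 201 to 385 in the other clusters of these samples. Its Txnrd1 was 453 to 1236 over all samples, and the other clusters stayed at 96.2 to 428. On day 1, Txnrd1 was 271 and 228 in cluster 2, against 113 to 143 in sham. In cluster 11 it was 214 and 213 against 96.2 to 148, and in cluster 18 171 and 190 against 135 to 161. Both day 1 samples were thus above every sham sample there, unlike in cluster 15 (921 and 628 against 453 to 1072). Over all LT samples, only cluster 2 had no overlap with sham (175 to 428). Gpx2 was highest in cluster 11 in 7 of 9 samples and in cluster 18 in 2. Sham 1, the sample with the highest Nqo1 in all BEC-like cells, was also the sample with the largest share of cluster 15, and inside cluster 15 its Nqo1 was still the highest.

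**Figure D4:**
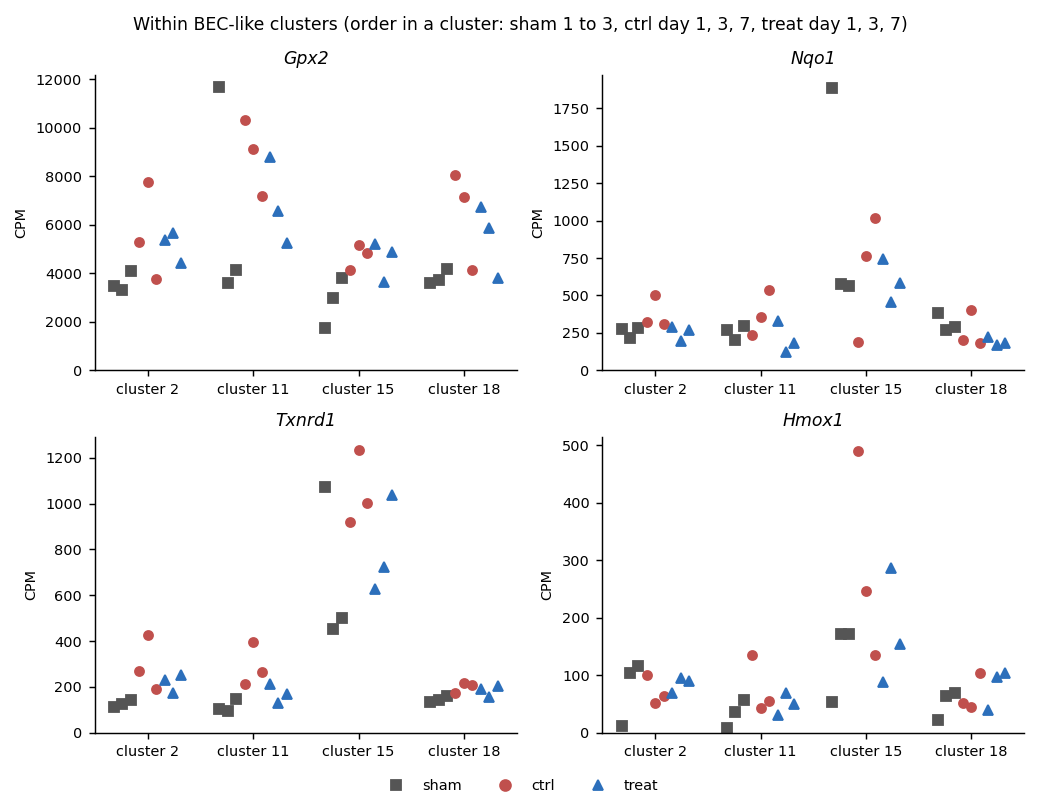
CPM (vertical axis, from 0) of Gpx2, Nqo1, Txnrd1 and Hmox1 in BEC-like clusters 2, 11, 15 and 18, with 1 point per sample, ordered as sham, ctrl and treat. Txnrd1 was highest in cluster 15 in every sample, and Gpx2 on day 1 lay above the sham samples in clusters 2, 15 and 18.

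Outside BEC-like cells, 7 cell types had at least 20 cells in every sample and 60 pairs of member and cell type passed the filter. Slc7a11 did not pass it in EC-, NK&T- and VSMC-like cells. By the same edgeR test, 1 pair was higher and 1 lower on day 1, 1 higher and 3 lower on day 3, and 2 lower on day 7. The background over the same cell types was 8.2% of all tests on day 1, 5.19% on day 3 and 3.79% on day 7. Between day 7 and day 1, 7 pairs were lower and none higher, with 7.35% called in either direction in the background. The shares called lower are given by cell type with these calls below.

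In macrophage-like cells, Nfe2l2 was 309, 456 and 537 in sham 1 to 3. On days 1, 3 and 7 it was 159.9, 153 and 178 in ctrl and 207, 175 and 185 in treat. All LT samples were below all sham samples, as were 10.3% of genes with at least 20 UMIs in these cells. The log2 fold changes were -1.26 ± 0.30, -1.24 ± 0.30 and -1.02 ± 0.30 on days 1, 3 and 7 and none passed by edgeR (adjusted p = 0.0802, 0.0530 and 0.0982). All 3 passed by DESeq2 (adjusted p = 0.00613, 0.00486 and 0.0288), which called 8.14%, 12.7% and 8.25% of all genes, where edgeR called 0, 462 and 319 of 10535. They also passed without sham 1 (edgeR adjusted p = 0.00463, 0.00414 and 0.00775), where 21%, 24% and 16.6% of all genes were called. Summed marker lists of other cells did not overlap between the groups in these sums either. The neutrophil list was 55.5 to 156 in sham and 191 to 2091 in LT, the NK&T list 44.5 to 77.2 and 154 to 434, the tuft list 536 to 661 and 182 to 479 and the acinar list 74.8 to 906 and 2.41 to 31.5. Their part in the Nfe2l2 values was not tested.

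Monocyte-like cells showed the same order of groups in CPM, by a narrow margin. Nfe2l2 was 291, 585 and 601 in sham, from 87, 56 and 53 cells, 106.4, 143 and 156 in ctrl and 138, 289.9 and 229.8 in treat. Sham 1 (290.97) and treat day 3 (289.87) nearly met, and their TMM factors were 1.12 and 0.83. With TMM scaling sham 1 thus lies below treat day 3, and the groups overlap. The fall on day 1 passed, with a log2 fold change of -1.73 ± 0.38 (edgeR adjusted p = 0.0117), where 3.67% of genes were called lower, while those on days 3 and 7, -0.91 ± 0.37 and -1.01 ± 0.37, did not (adjusted p = 0.222 and 0.270). The day 1 call was lost without sham 3 (adjusted p = 0.0640), without treat day 1 (0.133) and without the libraries numbered 1 (0.0938). In this class TMM scaling put the median over all genes at 0.11, 0.13 and 0.15 on days 1, 3 and 7, and library size alone at -0.11, -0.14 and -0.17. Among all genes 6.1% were lower in all LT than in all sham monocyte-like samples. Cluster 5 of this class, led by RGD1559482 and Slpi, held 20, 27 and 3 cells of sham 1 to 3 and 981 and 2186 of ctrl and treat on day 1, while cluster 14, led by Tyrobp and Fcer1g, held 40, 20 and 38 and then 74 and 225. On day 1 the summed neutrophil markers of monocyte-like cells were 18682 and 19227, against 519 to 728 in sham. Over all LT samples 5 other lists did not overlap with sham: NK&T (6.57 to 48.9 in sham and 97.3 to 368 in LT), BEC (355 to 391 and 219 to 342), fibroblast (225 to 552 and 91.8 to 215), acinar (14.7 to 1011 and 1.34 to 10.4) and mesothelial (at 0 in sham and at most 1.68 in LT). The part of clusters and lists in this result was not tested.

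Of the ligase subunits in macrophage-like cells, Gclm passed the edgeR test on day 3 and Gclc in no contrast. Gclm was 8.45, 10.5 and 10.4 in sham, 20.9, 23.2 and 13.6 in ctrl and 19.1, 15.6 and 14.7 in treat, and every LT sample was higher. It rose on day 3 by a log2 fold change of 1.07 ± 0.24 (edgeR adjusted p = 0.0458), where 2.38% of genes were called higher, a call lost without any 1 sample other than sham 1 (log2 fold changes of 1.05 to 1.16, adjusted p = 0.0673 to 0.248). Gclc was 33.8, 37.0 and 49.1 in sham, 21.8, 23.3 and 18.01 in ctrl and 29.9, 12.5 and 21.9 in treat, with every LT sample lower. Its log2 fold change on day 3 was -1.04 ± 0.29 and did not pass by edgeR (adjusted p = 0.0707), but it did by DESeq2 (adjusted p = 0.0203) and without sham 1 (edgeR adjusted p = 0.0177). In these cells 5.53% of genes were higher and 10.3% lower in all LT than in all sham samples.

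Hmox1 in macrophage-like cells was 187, 418 and 523 in sham, 609.8, 1034 and 238 in ctrl and 769, 314 and 177 in treat. The groups overlapped, and in both arms day 7 was the lowest LT day. The difference between day 7 and day 1 was -1.55 ± 0.51 on the log2 scale and did not pass (edgeR adjusted p = 0.262). It passed under some alternative fits, and all fits gave values of -2.03 to -0.91. In monocyte-like cells Hmox1 was 107.6, 381 and 364 in sham, 429, 483 and 509 in ctrl and 514, 285 and 137 in treat, with no call.

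The macrophage-like class was not made of the same cells in sham and LT. Cluster 27, led by Pf4 and Mrc1, held 905 and 728 cells of sham 2 and 3 and 0 to 36 of each LT sample, while cluster 6, led by C1qa and Apoe, held 6 to 45 cells in sham and 76 to 2251 in LT. Of sham 1, 312 macrophage-like cells were in cluster 13. Differences within this class and shifts between its clusters were not told apart here.

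**Figure D5:**
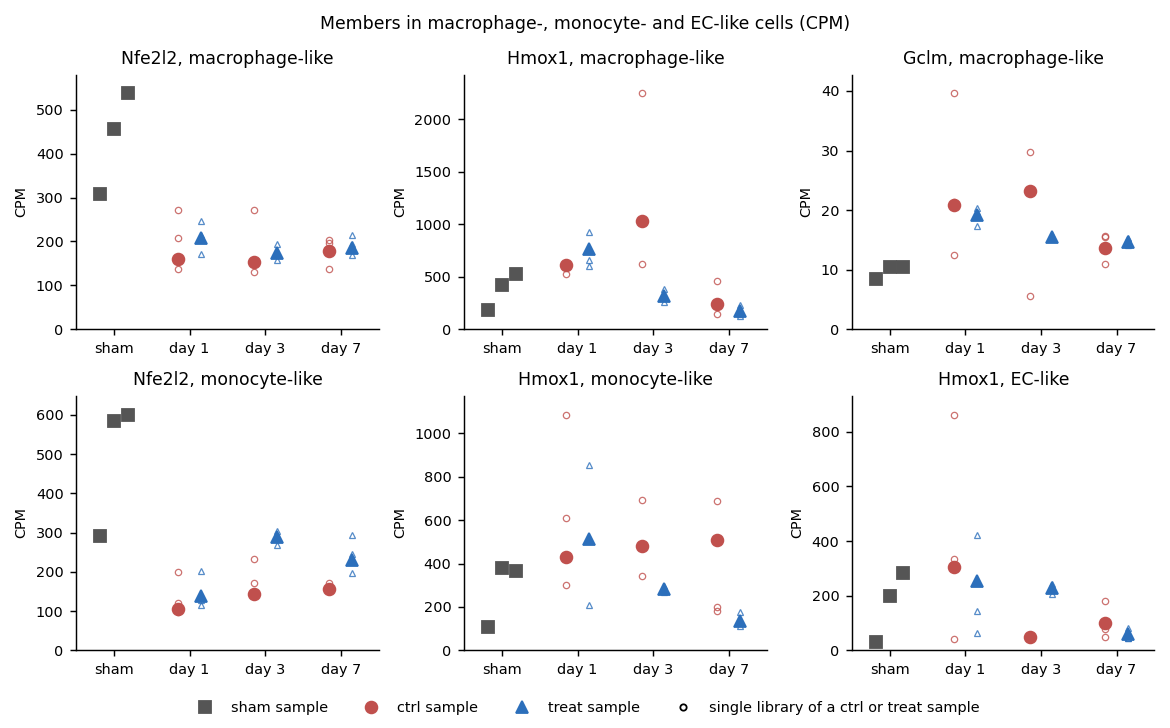
CPM (vertical axis, from 0) of Nfe2l2, Hmox1 and Gclm in macrophage-like cells, of Nfe2l2 and Hmox1 in monocyte-like cells and of Hmox1 in EC-like cells, by sham and day, with filled symbols for samples and open symbols for libraries. In CPM, Nfe2l2 was lower in all LT than in all sham samples in macrophage-like and, by a narrow margin, monocyte-like cells. Gclm was higher in macrophage-like cells.

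Fibroblast-like cells, which make the collagen of the duct wall, had low levels of the glutathione genes. Gclc was 15.4, 10.1 and 12.2 in sham, 15.04, 7.24 and 9.04 in ctrl and 15.8, 8.35 and 10.3 in treat, and the day 1 samples overlapped with sham 1 in CPM. It rose on day 1 by a log2 fold change of 0.73 ± 0.22 (edgeR adjusted p = 0.0322) and fell between day 1 and day 7 by 0.88 on the log2 scale (adjusted p = 0.0231). The rise was lost without sham 2, sham 3 or either day 1 or day 7 sample (log2 fold changes of 0.55 to 0.94, adjusted p = 0.0527 to 0.201). With scaling to library size alone the first value was 0.39 and did not pass (adjusted p = 0.196), and 17.4% of all genes were called higher in these cells on day 1. Gclm fell between day 1 and day 7 as well, by 0.98 on the log2 scale (edgeR adjusted p = 0.0114). In this contrast 15.1% of genes were called lower. Both falls were lost without ctrl day 1, ctrl day 7 or treat day 7, and that of Gclc also without sham 3 (adjusted p = 0.0536 to 0.213).

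Nqo1 in fibroblast-like cells was 33.6, 19.9 and 21.3 in sham, 19.3, 10.1 and 11.9 in ctrl and 18.9, 8.12 and 12.5 in treat. Every LT sample was below every sham sample, as were 12.1% of the genes with at least 20 UMIs. This order is that of CPM: with TMM factors of 0.80 and 0.94 in ctrl and treat on day 1 and above 1 in every sham sample, the log2 fold change on day 1 was 0.08 ± 0.21 (edgeR adjusted p = 0.792). Nqo1 in empty barcodes moved in the same direction, at 92.9 to 128 in sham, 91.3 and 112.6 on day 1, 51.1 and 62.3 on day 3 and 49.0 and 55.6 on day 7, and could account for 11.5% to 32.7% of the Nqo1 counts of fibroblast-like cells. Nqo1 in these cells was lower on day 3 by a log2 fold change of -1.14 ± 0.23 (edgeR adjusted p = 0.0447), where 0.859% of genes were called lower, and on day 7 against day 1 the value was -0.86 ± 0.23 (adjusted p = 0.0253). The day 3 call was lost without sham 2, sham 3 or either day 3 or day 7 sample (adjusted p = 0.0763 to 0.294), and the other without sham 3 or either day 1 or day 7 sample (0.0539 to 0.256). With empty barcodes subtracted the Nqo1 values were -1.32 (adjusted p = 0.0473) and -0.98 (adjusted p = 0.0196). The fibroblast-like clusters also changed with group: cluster 9, led by Ogn and Gpc3, held 64, 1721 and 3711 sham cells and 1 to 72 in each LT sample, and cluster 8, led by Ptx3, held 5241 cells of treat day 1. The summed fibroblast list itself was 51168 to 64468 in sham and 9815 and 27059 in ctrl and treat on day 1. Other lists also moved without overlap, plasma from at most 14.8 in sham to 23.2 to 90.8 in LT and acinar from 40.6 to 512 in sham to 3.73 to 19.3 in LT, with BEC and goblet lower in LT. Their part in the Gclc, Gclm and Nqo1 calls of these cells was not tested.

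In NK&T-like cells, Nfe2l2 was lower on day 3 than in sham, with levels of 71.8, 89.5 and 87.1 in sham and of 47.0 and 41.6 in ctrl and treat on day 3. The log2 fold change was -0.75 ± 0.22 (edgeR adjusted p = 0.0279), and 10.2% of all genes were called lower in these cells on that day. It was lost without any 1 sample other than sham 1 (log2 fold changes of -0.80 to -0.69, adjusted p = 0.0560 to 0.181). The class was also made of different clusters. Cluster 12, led by Ccl5 and Gzma, held 41, 204 and 355 cells of sham 1 to 3 and 66 and 134 of ctrl and treat on day 3, while cluster 1, led by Cd3d and Cd3g, held 74, 56 and 43 and then 349 and 1739. Of 22 summed marker lists in these cells, 4 did not overlap between sham and LT: neutrophil (28.3 to 39.4 and 78.4 to 319), monocyte (881 to 1251 and 1616 to 3123), acinar (88.0 to 1392 and 3.17 to 20.1) and LEC (13.2 to 48.6 and 2.20 to 10.6). The part of clusters and lists in these calls was not tested. Nqo1 was lower on day 3 (-1.23 ± 0.40, adjusted p = 0.0412) and day 7 (-1.49 ± 0.38, adjusted p = 0.0325) at levels of 5.47 to 33.0. Empty barcodes, in which Nqo1 was also lower on these days, could account for 11.6% to 45.9% of these counts, and with them subtracted neither Nqo1 value passed (-1.22 and -1.59, adjusted p = 0.0784 and 0.0533). Both Nqo1 calls were lost without sham 2, the sample with the highest Nqo1, at log2 fold changes of -0.75 and -1.03 (adjusted p = 0.238 and 0.211). Leaving out 1 sample at a time, the day 3 call held only without sham 1 or treat day 1 (otherwise adjusted p = 0.0570 to 0.238), and the day 7 call was also lost without sham 3, ctrl day 7 or treat day 7 (adjusted p = 0.0701 to 0.334).

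Gpx2 in NK&T-like cells was lower on day 7 than in sham by a log2 fold change of -1.59 ± 0.36 (edgeR adjusted p = 0.0195), where 3.84% of genes were called lower, a call lost without sham 2, ctrl day 7 or treat day 7 (adjusted p = 0.111 to 0.187). Gpx2 also accounted for 4 of the 7 falls between day 1 and day 7. The log2 fold changes were -2.67 ± 0.37 in EC-like (edgeR adjusted p = 0.0118), -2.70 ± 0.36 in NK&T-like (0.00201), -2.08 ± 0.59 in fibroblast-like (0.0298) and -2.25 ± 0.49 in monocyte-like cells (0.0101). The shares of all genes called lower there were 0.815%, 0.769%, 15.1% and 1.88%. The call in EC-like cells was lost without ctrl day 1 (-2.06, adjusted p = 0.0855), ctrl day 7 (-2.24, 0.234) or treat day 1 (-3.32, 0.0573). Those in fibroblast- and monocyte-like cells were lost without ctrl day 1 (-0.90 and -1.10, adjusted p = 0.162 and 0.171) or ctrl day 7 (-1.25 and -1.58, 0.309 and 0.0981). Gpx2 in empty barcodes was 5491 and 1963 in ctrl and treat on day 1 and 459 and 830.0 on day 7. The Gpx2 of these cells, at 6.12 to 106.2 in the LT samples, thus moved with the free RNA of the same samples. No member was called in VSMC- or tuft-like cells in any contrast.

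Tuft-like cells, the other epithelial class, kept their high Gclc in every sample. Gclc was 109.9, 113 and 90.2 in sham, 101.9, 88.3 and 66.6 in ctrl and 118, 132 and 112 in treat, and only ctrl days 3 and 7 lay below the sham samples. The summed endocrine list in these cells was 39778 in treat day 3, the sample with the highest Gclc, and 0 to 2631 in the others, and its part was not tested. Its log2 fold changes against sham were 0.10 ± 0.22, 0.06 ± 0.26 and -0.19 ± 0.24 on days 1, 3 and 7 (edgeR adjusted p = 0.935, 0.996 and 0.874). Gpx2 in tuft-like cells was 1969, 1302 and 1265 in sham, 3224, 1873 and 674 in ctrl and 1899, 1071 and 1222 in treat. Like in BEC-like cells it was highest on day 1 in ctrl and in treat, but the groups overlapped and the difference between day 7 and day 1, -1.34 ± 0.35, did not pass (adjusted p = 0.338).

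EC-like cells had Hmox1 of 30.05, 201 and 283 in sham, 306, 47.8 and 98.6 in ctrl and 253, 227 and 59.7 in treat, and no contrast passed. In the 6 libraries numbered 1 it was 30.05 to 64.8 and in the others 45.9 to 863. For treat against ctrl, none of the 60 pairs was called by edgeR (background 0.084%), and 4 passed at an unadjusted p under 0.05, against 6.61% of all tests, so that the count is near the background. The largest of these 4 differences was that of Nfe2l2 in EC-like cells, at 92.7, 72.4 and 92.8 in ctrl and 191, 208 and 122 in treat on days 1, 3 and 7. Its log2 fold change of 1.01 ± 0.33 did not pass the adjustment (adjusted p = 0.545) although treat was higher on each of the 3 days, and the 3 sham samples spanned 160.5 to 314. The libraries numbered 1 had a median of 84.3 here and the others of 161.0. On day 3 library 1 was the only ctrl library with at least 20 such cells (72.9), while the treat value came from libraries 2 and 3 (186 and 223), so arm and library number cannot be told apart on that day.

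Neutrophil-like cells could not be tested against sham, since sham 2 and 3 held 5 and 6 of them. Slc7a11 was 153 in sham 1, 59.5, 48.8 and 103.3 in ctrl and 67.5, 57.4 and 72.3 in treat. Hmox1 was 33.9 in sham 1, 745, 168 and 275 in ctrl and 253, 337 and 139.3 in treat, and Gsr was 135.7 in sham 1 and 31.4 to 61.1 in LT. Sham 1 also had lower Hmox1 and higher Gsr than sham 2 and 3 in BEC-, EC-, macrophage- and monocyte-like cells, so these values are not read as a difference between sham and LT.

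Related genes of the pathway were followed in BEC-like cells by 9 lists of 107 genes, of which 93 were tested. On day 1, 15 rose and 8 fell, on day 3, 3 rose and 4 fell, and on day 7, 2 rose and 6 fell. Between day 7 and day 1, 2 rose and 12 fell, and none was called for treat against ctrl. The shares are to be read against the background of 17.7%, 3.12%, 3.14% and 14.9% of all genes.

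Of 13 tested genes in the list of thioredoxins, peroxiredoxins, superoxide dismutases and catalase, 4 rose and 1 fell on day 1. Sod2, the mitochondrial superoxide dismutase, rose by 1.68 ± 0.16 on the log2 scale (edgeR adjusted p = 0.0048), Prdx1 by 0.64 ± 0.17, Prdx3 by 0.71 ± 0.13 and Txn1, thioredoxin, by 0.61 ± 0.16. Sod3, the extracellular superoxide dismutase, fell by 1.30 on the log2 scale. Between day 7 and day 1, 5 of the 13 fell and none rose. The median of the list was 0.22 on day 1 and -0.61 between day 7 and day 1.

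Of 15 tested glutathione transferases and exporters, 1 rose (Mgst2) and 3 fell (Gsta1, Gsta4 and Abcc4) on day 1. Gsta1, which conjugates glutathione to electrophiles, was 527, 399 and 344 in sham, 32.7, 128 and 65.5 in ctrl and 78.2, 66.5 and 80.7 in treat. Every LT sample was below every sham sample. Its log2 fold change was -2.61 ± 0.40 on day 1 (edgeR adjusted p = 0.0108) and -2.43 ± 0.40 on day 7 (adjusted p = 0.0270).

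Of 13 carbonyl and quinone reductases, none rose and 3 fell on day 1 (Akr1c15, Akr7a2 and Ephx1). Akr1c15, an aldo-keto reductase, was 1115, 1075 and 1079 in sham, 276, 206 and 78.8 in ctrl and 589, 467 and 148 in treat. The LT samples were all lower and lowest on day 7. Its log2 fold change was -1.60 ± 0.16 on day 3 (edgeR adjusted p = 0.00616), -3.24 ± 0.17 on day 7 (adjusted p = 0.00109) and -2.16 ± 0.17 between day 7 and day 1 (adjusted p = 0.00354). Akr1c15 is a leading gene of cluster 18, whose share was lower in LT, and the part of this share in its level was not tested.

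Of 7 glutathione and cystine genes, Ggt1 and Glrx rose on day 1 and none fell. Glrx, glutaredoxin, was 6.07, 6.41 and 5.52 in sham, 36.7, 230.5 and 57.0 in ctrl and 10.0, 25.5 and 23.1 in treat, and all LT samples were above sham. It rose by 3.94 ± 0.34 on the log2 scale on day 3 (edgeR adjusted p = 0.00348) and by 2.72 ± 0.33 on day 7 (adjusted p = 0.0106). Of 9 ATF4 targets, Asns and Trib3 rose on day 1. Trib3, a pseudokinase of the amino acid and endoplasmic reticulum stress response, was 0.30 to 0.64 in sham and 1.33 to 4.74 in LT, and rose by 2.73 ± 0.43 on day 1 (adjusted p = 0.0113) and 3.03 ± 0.44 on day 3 (adjusted p = 0.0198). Its sham levels lie near the floor, in sums of 3131867 to 19035952 UMIs.

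Of 10 NRF2 regulators, 1 rose on day 1, Rbx1, a subunit of the ligase that KEAP1 serves. Of 10 heme and iron genes, Blvrb, a biliverdin reductase, and Hmox2, the constitutive heme oxygenase, rose. Of 5 NADPH genes, Taldo1 of the pentose phosphate pathway rose. Of 11 selenium genes, Selenof and Sephs2 rose and Selenop, the plasma selenium carrier, fell with a log2 fold change of -3.26 ± 0.59 (edgeR adjusted p = 0.0148) at levels of at most 2.16. Between day 7 and day 1, Selenom fell by 1.00 on the log2 scale (adjusted p = 0.0312), and Abcc4, a glutathione and nucleotide exporter, rose by 0.92 ± 0.23 (adjusted p = 0.0376).

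The genes most like each member in pattern were found by the Pearson correlation of log2(CPM + 1) over 72 sums, 8 cell types in 9 samples, among 15244 genes. The sums of a sample share its libraries and those of a type share its identity, so the coefficients describe mostly the order of cell types. Gpx2 was closest to Lgals4 (r = 0.97) and Krt7 (0.96), both epithelial genes, and Nqo1 to Gsta3 (0.90) and Tmem171 (0.89). Txnrd1 was closest to Nqo1 (0.86), Gsr to Rhov (0.84) and Tkt (0.80), and Gclm to Pla2g12a (0.89) and Paqr4 (0.87). Gclc was closest to Zfp513 and Trak1 (both 0.85) and Slc7a11 to Cib1 and Tbxas1 (both 0.80). Hmox1 was closest to Cxcl1 (0.88) and Ctsb (0.84), and Nfe2l2 to Rapgef2 (0.83) and Nfkbiz (0.81). Among the members, Nfe2l2 had r = 0.62 with Hmox1 and r = -0.03 with Nqo1.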

How the data were processed

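The authors deposited unfiltered UMI count matrices of every barcode, with no normalization; the matrix headers name Cell Ranger, and the submitters' notes list Cell Ranger 5.0.1 and Seurat 3.2.0. The genome build is not given in the sources used here. Of 161086 barcodes with over 400 genes, 150284 had under 6000 genes, under 25% mitochondrial and under 3% hemoglobin UMIs, and 10541 were removed as doublets by a simulated-doublet score above the 92.5th percentile of each library. The rest were clustered on 30 components of 2000 variable genes (k = 20, resolution 0.9), with the members and listed genes left out. Clusters were named from fixed markers; the naming rule was changed after clusters and their sizes were seen, and 11466 cells stayed unnamed. One unnamed cluster was led by Ins1, Ins2 and Gpx2.

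Counts were summed per sample and cell type with at least 20 cells in every sample and tested with edgeR 4.0.16 (quasi-likelihood, TMM, filterByExpr, R 4.3.3), with terms for sham, each day and the arm. Benjamini-Hochberg adjustment ran over all genes, with a threshold of 0.05, beside DESeq2 1.42.0. In simulated counts of day 1 against sham, with a log2 change of 2 in 200 of 13670 BEC-like genes, 86.0% were recovered, and 44.5%, the lowest of the 8 cell types, in monocyte-like cells (10367 genes). Recovery of smaller changes was not computed. The named genes are all members, the 3 called list genes with the largest change per contrast in BEC-like cells and the 2 genes most like each member, of which 1 is not reported here; other list genes are named as called. The members and lists were chosen with earlier results of these data known. Same-numbered libraries did not correlate above 0.1 in every pair, although those numbered 1 did in 3 cell types, so numbers were not used to pair samples. The median correlation of same-numbered pairs was above that of other pairs in every cell type. Sequences are not given. One library of treat day 3 was not used here.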

Additional observations from a re-analysis of the deposited data

Results flagged for a closer look

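Slc7a11 was also present in the barcodes with at most 100 UMIs, which the comparisons do not use. Its level there was 1.1 to 1.5 CPM in the 3 sham samples and 3.2 to 8.8 CPM in the 6 LT samples, with a median of 5.23 CPM over the LT samples, above every sham sample. No group had the 4 samples needed to test for a single sample far from the others.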

How the results depend on the processing

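The alternatives were followed for all called member differences and for a chosen set of those not called. No called difference changed direction under any alternative, and 12 of the chosen set did. In BEC-like cells, Nqo1 on day 1 was 0.22 without the libraries numbered 1 and Nqo1 on day 3 0.21 with ctrl alone, Txnrd1 on day 1 was -0.059 without the Scgb1c1 cluster, Gsr on day 1 -0.12 with library size alone and Hmox1 on day 1 -0.28 with treat alone. Nqo1 in fibroblast-like cells on day 1 was -0.27 with library size alone. Gclc in tuft-like cells on day 3 was -0.0084 without a filter, -0.12 with at least 1000 UMIs and -0.32 with ctrl alone, and on day 7 0.12 with treat alone. Without 1 sample, BEC-like Nqo1 ranged from -1.26 to 0.45 on day 1, -1.21 to 0.25 on day 3 and -0.84 to 0.042 on day 7, Gsr on day 1 from -0.047 to 0.59 and Hmox1 on day 1 from -0.34 to 2.14. For treat against ctrl, Hmox1 ranged from -1.30 to 0.039 and Nfe2l2 from -0.027 to 0.071. Nqo1 in fibroblast-like cells on day 1 ranged from -0.070 to 0.20, and Gclc in tuft-like cells from -0.17 to 0.37 on day 1 and -0.15 to 0.25 on day 3. Gpx2 in tuft-like cells between day 7 and day 1 passed without a filter, with DESeq2, with each library as a sample, without the libraries numbered 1 and without treat day 7 (-2.19 to -1.33). The median over all genes against sham turned sign in monocyte-like cells with library size alone and DESeq2 on each day and with RLE on day 3, and in NK&T-like cells with each of these. Without the Scgb1c1 cluster, the sham means of BEC-like cells moved by more than their SD for Gclc (68.5 CPM), Hmox1 (98.4 CPM) and Txnrd1 (490.1 CPM). In BEC-like cells, the 2 member calls on day 1 became 1 with each library as a sample, 1 without the libraries numbered 1, 1 without the Scgb1c1 cluster and 0 with ctrl or treat samples alone, and leaving out 1 sample gave 0 to 2. The highest count on day 1 under an alternative was 3, and Nfe2l2 passed with library size alone. The 1 call on day 3 became 2 with RLE size factors, DESeq2 or no doublet removal, and 0 with each library as a sample, without the libraries numbered 1, with empty barcodes subtracted, without the Scgb1c1 cluster or with 1 arm alone, and leaving out 1 sample gave 0 to 2. The 0 calls on day 7 became 1 with DESeq2 and 0 to 1 without 1 sample. The 1 call between day 7 and day 1 became 0 with 1 arm alone and 0 to 1 without 1 sample. With 0 calls, treat against ctrl was at 0 under every alternative.

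In the other cell types, the 2 calls on day 1 became 1 with library size alone or treat alone, 8 without a filter, 7 with DESeq2, 4 with each library as a sample and 0 to 8 without 1 sample. The 4 on day 3 became 7 with DESeq2, 1 without the libraries numbered 1, 1 without doublet removal, 0 with 1 arm alone and 0 to 7 without 1 sample. The 2 on day 7 became 4 with library size alone, 5 without a filter, 6 with DESeq2, 0 without doublet removal, 1 with empty barcodes subtracted, 0 with 1 arm alone and 0 to 6 without 1 sample. The 7 between day 7 and day 1 became 17 with each library as a sample, 3 with ctrl alone, 1 with treat alone and 1 to 9 without 1 sample. The 0 for treat against ctrl became 1 without the libraries numbered 1 and 0 to 1 without 1 sample. The cause of these changes was not tested, also for the fits with fewer samples.

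The deviations of same-numbered libraries correlated at -0.34 to 0.54 (median 0.12) in BEC-like cells and fell below 0.1 for some pairs in every cell type, so the numbers were not taken to pair samples. Over the 8 cell types, the median was 0.08 to 0.21 for same-numbered pairs and -0.12 to -0.04 for pairs of other numbers. What same-numbered libraries share was not tested. Pairs of libraries numbered 1, however, all correlated above 0.1 in EC-like (0.19 to 0.47), VSMC-like (0.12 to 0.41) and macrophage-like cells (0.13 to 0.53). With the library number as a replicate block, the BEC-like calls were 1 on day 1 and 2 between day 7 and day 1, and those of the other cell types were 4 on day 1, 4 on day 7 and 20 between day 7 and day 1. In that fit libraries count as samples, and where they share a rat its p-values are too small. The fits with the block, without the libraries numbered 1 and without 2 libraries of ctrl day 3 were chosen after seeing the data. Depth limits Slc7a11, with 12 to 42 UMIs per sham sample in BEC-like cells, and the sham monocyte-like class of 53 to 87 cells. It also limits Trib3 in BEC-like cells, at 0.30 to 0.64 CPM in sham.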
